A study of Mus musculus with 14 samples.

Results

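The Bcl2 family holds the proteins that decide whether the mitochondrial outer membrane stays closed or is opened in apoptosis. Its 10 members described here are Bax, Bak1, Bcl2, Bcl2l1, Mcl1, Bbc3, Pmaip1, Bid, Bik and Bcl2l11. They were taken as the rows of the count table whose Ensembl gene identifier maps to these symbols, 10 of 37680 genes. No measured value served as a filter, but the list was chosen with earlier results of these data known. All 10 had enough counts to be tested in every comparison.

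The RNA-seq libraries came from the colon epithelium of adult mice on a C57/BL6-enriched background, in which the transcription factor Smad4, an effector of TGF-β and BMP signaling, was present (WT) or deleted in the intestinal epithelium (Smad4 KO). In the Smad4 KO the floxed Smad4 alleles (Smad4 f/f) are removed by Villin-CreERT2, a Cre recombinase that the Villin promoter expresses in intestinal epithelial cells and that tamoxifen activates. The study's methods name the transgene for conditional mutants and controls alike, and whether WT mice also received tamoxifen is not given in the sources used here. Mice drank water (4 WT and 4 Smad4 KO libraries) or water with 2.5% DSS (dextran sulfate sodium, which injures the colon epithelium) for 3 d (3 WT and 3 Smad4 KO libraries). The epithelium was lifted off the underlying mesenchyme of the whole colon with EDTA, and polyadenylated RNA was sequenced. The comparisons ask how transcript levels of these genes differ between the genotypes before and after injury, and how they differ between DSS and water within each genotype.

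Bax and Bak1 are the effectors, which assemble into pores in the mitochondrial outer membrane and release cytochrome c. Bcl2, Bcl2l1 (Bcl-xL) and Mcl1 are anti-apoptotic members that hold the effectors and their activators in check, and the BH3-only members Bbc3 (Puma), Pmaip1 (Noxa), Bid, Bik and Bcl2l11 (Bim) carry death signals to both. In the intestine Bcl2 is known for its presence at the crypt base, and Bbc3 for the death of crypt cells after DNA damage. Much of the family's regulation acts on protein, by cleavage of Bid, rapid turnover of Mcl1 and binding between members, which transcript counts do not measure.

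Total counts per library ran from 12882827 to 26087231. Smad4 itself had 2372 to 3188 normalized counts in the 4 WT libraries on water and 3407 to 3650 in the 3 WT libraries after DSS, against 808 to 878 in the Smad4 KO after DSS. On water 3 Smad4 KO libraries had 702, 741 and 936, while the library labelled Smad4 KO water replicate 1 had 3164, within the WT range. This library goes against its label, is kept under it, and results on water are given with and without it. The study's figure legends give 3 replicates for the Smad4 KO water group, against the 4 labelled here, and do not say which 3. The log2 fold change of Smad4 in Smad4 KO against WT was -2.05 after DSS (edgeR adjusted p = 2.0e-06) and -0.95 on water (edgeR adjusted p = 0.26), or -1.75 on water without that library (edgeR adjusted p = 0.0067). Mitochondrial transcripts held 30.6% and 32.8% of the counts in WT water replicates 3 and 4 and 21.4% in Smad4 KO water replicate 4, and 4.05% to 8.23% in the other 11 libraries. The 7 epithelial markers were detected in every group, with a summed level of 224630 to 364431. WT and Smad4 KO water replicates 4 share a name prefix, MP, whose meaning the labels do not give.

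Positions are those of mm9. Bax spans chr7:52717065-52722268 and Bcl2 chr1:108434755-108610851, both on the minus strand. Their promoters are shown because Bax and Bcl2 are the classical opposed pair of the family and had fold changes of opposite sign between the genotypes. Each run is the 250 bases before the RefSeq start of the gene, found once in NCBIM37 (mm9) by an exact match, and reads 5′ to 3′ on the strand of the gene. Capitals mark a p53 decamer, the repeated unit of p53 response elements, in the Bax run and the motif GGCGCC, a GC-rich Smad motif, in the Bcl2 run.
Bax chr7:52722269-52722518, minus strand: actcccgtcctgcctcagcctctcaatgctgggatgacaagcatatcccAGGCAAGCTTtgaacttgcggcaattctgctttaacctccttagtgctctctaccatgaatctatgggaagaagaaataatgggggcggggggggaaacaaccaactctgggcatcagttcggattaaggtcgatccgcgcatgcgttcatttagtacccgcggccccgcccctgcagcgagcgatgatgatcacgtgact
Bcl2 chr1:108610868-108611117, minus strand: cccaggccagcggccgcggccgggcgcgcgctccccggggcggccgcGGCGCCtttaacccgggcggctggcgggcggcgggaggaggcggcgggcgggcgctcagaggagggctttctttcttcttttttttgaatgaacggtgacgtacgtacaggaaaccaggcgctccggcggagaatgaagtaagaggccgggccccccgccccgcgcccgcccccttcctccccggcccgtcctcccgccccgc
Neither run holds CAGAC, the Smad box, on either strand. RefSeq promoters were found for 8 of the 10 members, 13 promoters in all, as some genes have several starts. CAGAC was present on 1 or the other strand in 5 of these 13 and in 42.2% of all 32851 RefSeq promoters of the same length, GGCGCC in 4 of 13 and 9.59% of all, and the p53 decamer in 1 of 13 and 7.13% of all. Counted by gene, CAGAC was present in 4, GGCGCC in 3 and the p53 decamer in 1 of the 8. A match says only that these letters are present.

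Mcl1 had the highest level per exon length and Bcl2l11 the lowest in all 4 groups. On WT water the mean level was 2137 ± 169 (SD, n = 4) normalized counts per kb of exon for Mcl1, 1027 ± 128 (SD, n = 4) for Bax and 981 ± 152 (SD, n = 4) for Bak1, and the ranges of Bax and Bak1 overlapped. Bcl2l1 followed with 189 ± 24 (SD, n = 4), above every library of Pmaip1 at 128 ± 18 (SD, n = 4). Bbc3, Bik and Bid came next, at 121, 96.9 and 89.6 per kb, and neighbours in this order overlapped. Bcl2, at 42.0 ± 6.9 (SD, n = 4) per kb, and Bcl2l11, at 20.2 ± 4.2 (SD, n = 4) per kb, were apart from their neighbours. The epithelium carried far more transcript per exon length of Mcl1 and Bcl2l1 than of Bcl2, and more of the effectors than of any BH3-only member. After DSS the order of the first 5 was Mcl1, Bak1, Bax, Bcl2l1 and Pmaip1 in both genotypes, with Bak1 above Bax in every library of both groups and Bcl2l1 and Pmaip1 overlapping.

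**Figure D1:**
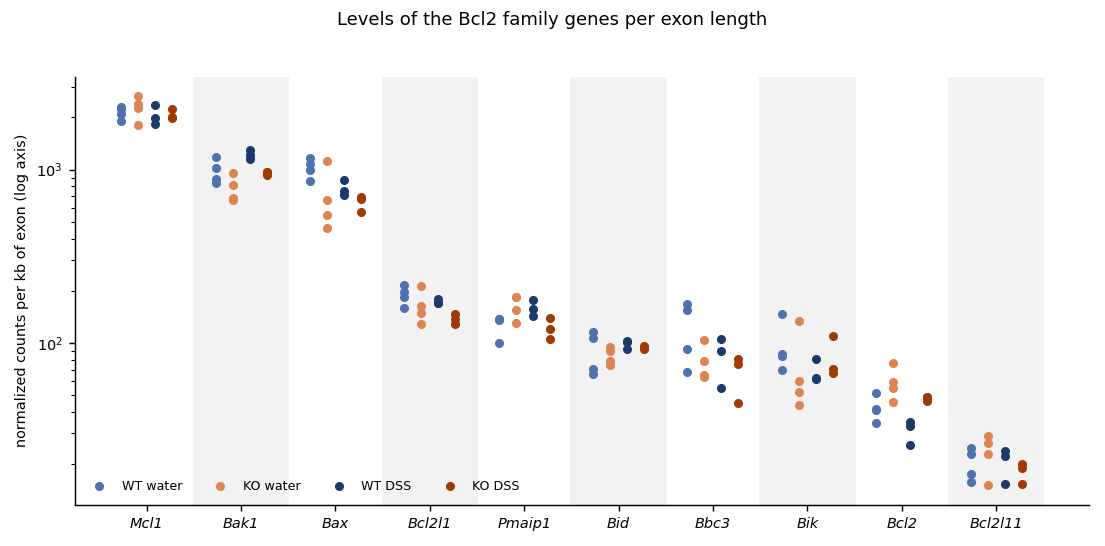
Normalized counts per kb of exon (log axis) of the 10 genes, with 1 point per library and the 4 groups side by side. Mcl1 lies above all other genes, Bax and Bak1 follow at 462 to 1296, and Bcl2 and Bcl2l11 have the lowest mean in each group.

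After 3 d of DSS, Bcl2 transcripts were higher in every Smad4 KO library than in any WT library, and those of Bax, Bak1, Bcl2l1 and Pmaip1 were lower in every Smad4 KO library. None of the 10 genes passed edgeR's quasi-likelihood test after Benjamini-Hochberg adjustment at 0.05, where 155 of 14241 genes did (1.09%; 66 higher and 89 lower in Smad4 KO). DESeq2, the tool the study used, called Bcl2 higher and Bak1 lower (2 of 10), with 3.42% of all genes called. The 5 genes with no overlap between the groups compare with 22.1% of all genes tested (10.4% higher and 11.7% lower). The median log2 fold change of the 10 genes was -0.22, and that of all genes tested 0.0044. At an unadjusted p of 0.05 edgeR gave 5 of the 10 and 15.8% of all genes.

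Among the anti-apoptotic members, Bcl2 had 252, 185 and 239 normalized counts in WT and 349, 349.9 and 331 in Smad4 KO after DSS. The 3 Smad4 KO libraries lay within a narrow band above the highest WT library. The log2 fold change was 0.61 (SE, the standard error, 0.15, edgeR adjusted p = 0.083, DESeq2 adjusted p = 0.023).
Bcl2l1, on chr2:152593052-152657464, moved the other way, with 809, 849 and 799.9 in WT and 610.4, 696 and 649 in Smad4 KO. The groups did not overlap, and the log2 fold change was -0.33 (SE 0.10, edgeR adjusted p = 0.16). Mcl1, on chr3:95462643-95467099, had 6431, 8251 and 6932 in WT and 7011, 7778 and 6957 in Smad4 KO. Its groups overlapped fully, with a log2 fold change of 0.01 and a 95% confidence interval from -0.24 to 0.27. Its sign turned with WT replicate 1 (-0.07), WT replicate 3 or Smad4 KO replicate 2 left out.

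Of the effectors, Bak1 (chr17:27156755-27165954) had 2789, 2943 and 3119 in WT and 2320.2, 2324 and 2244 in Smad4 KO after DSS. The highest Smad4 KO library was well under the lowest WT library, and the log2 fold change was -0.36 (SE 0.09, edgeR adjusted p = 0.086, DESeq2 adjusted p = 0.023). Bax had 955, 1172 and 1005 in WT and 763, 933 and 903 in Smad4 KO. Here the groups were separated by a small gap only, and the log2 fold change was -0.26 (SE 0.12, edgeR adjusted p = 0.30).

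The BH3-only members were less uniform. Pmaip1 (chr18:66618258-66625204), a p53 target, had 413, 377 and 469 in WT and 316, 368 and 277 in Smad4 KO, with no overlap and a log2 fold change of -0.39 (SE 0.14, edgeR adjusted p = 0.24). Bid (chr6:120841948-120866871), whose cleaved protein links death receptors to the effectors, was almost level, at 328 to 362 in WT and 329 to 339 in Smad4 KO. Bbc3 (chr7:16894965-16903554) at 109.8 to 211 and 90.04 to 163, Bik (chr15:83357292-83375065) at 58.2 to 76.4 and 63.0 to 104, and Bcl2l11 (chr2:127951774-127988283) at 123 to 190.5 and 124 to 162 all overlapped between the genotypes. Of the 5 BH3-only genes, 0 passed the edgeR or the DESeq2 test, and 4 of 5 log2 fold changes were below 0.

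**Figure D2:**
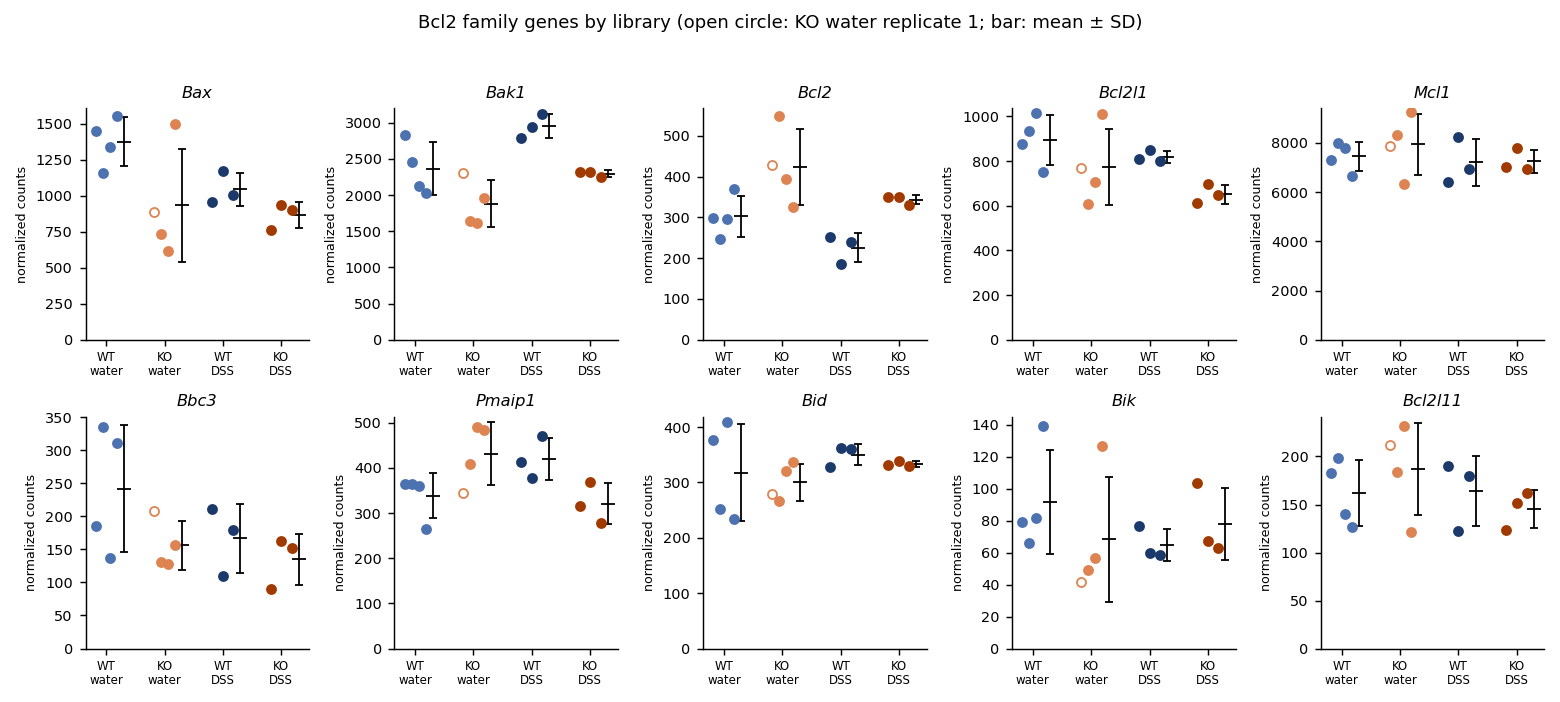
Normalized counts (linear axes from 0) of the 10 genes in each of the 14 libraries, in the order of effectors, anti-apoptotic and BH3-only members, with the mean and SD of each group. After DSS Bcl2 sits at 331 to 349.9 in Smad4 KO, above 185 to 252 in WT, and Bak1 at 2244 to 2324, under 2789 to 3119.

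Other values moved with genotype in the same 6 libraries. The summed level of 5 crypt base markers was 3969 to 4246 in Smad4 KO and 2503 to 3510 in WT after DSS. Of these, Smoc2 (1466 to 1625 against 391 to 649) and Lgr5 (238 to 259 against 51.2 to 122) were higher, Ascl2 was lower (50.3 to 74.2 against 85.1 to 137), and Axin2 and Sox9 overlapped. The sum of 6 surface colonocyte markers was 73021 to 87286 against 94692 to 103763, with Krt20, Aqp8 and Car4 lower and Slc26a3, Ceacam1 and Guca2a overlapping. That of 6 fibroblast markers was 144 to 259.7 against 5.52 to 37.9. Of these, Lum was at 0 in every WT library and in Smad4 KO replicates 1 and 2, and Pdgfra overlapped (0 to 8.13 against 0 to 0.915). The 5 neutrophil markers summed to 1355 to 1709 and 795 to 1514, and overlapped. Among them S100a8 (142 to 288 against 9.20 to 31.2) and S100a9 (37.6 to 131 against 4.60 to 15.5) were higher in Smad4 KO. Ly6g and Csf3r overlapped, and Mpo was at 0. The 10 lymphocyte markers summed to 666 to 875 and 422 to 919, and overlapped. Their part in the differences of the Bcl2 family was not tested, and in bulk RNA fewer cells of a type and less RNA per cell cannot be told apart. The 3 Smad4 KO libraries and WT replicates 1 and 2 share the name prefix D, and WT replicate 3 does not. With WT replicate 3 left out, the log2 fold changes of Bcl2 and Bak1 were 0.66 and -0.32, and neither passed. Bak1 and Bcl2 each share exonic bases with a gene on the opposite strand (Ggnbp1 over 14.8% of the exonic bases of Bak1, D630008O14Rik over 7.8% of those of Bcl2), as does Bid with Bcl2l13 (17.7%), and the strand setting of the counting is not given in the sources used here, so the reads of such pairs may not be told apart.

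On water Bcl2 had a log2 fold change above 0, and Bax, Bak1 and Bcl2l1 below 0, the same signs as after DSS. Those of Bbc3 (-0.63 on water), Bid (-0.08) and Mcl1 (0.09) also had the same sign in both. Pmaip1 (0.35 on water and -0.39 after DSS), Bik (-0.41 and 0.27) and Bcl2l11 (0.20 and -0.17) had opposite signs. None passed. Of the 10 genes, 0 passed in edgeR, with 2 at an unadjusted p under 0.05, and 0 passed in DESeq2, with 3 at an unadjusted p under 0.05. Few genes passed in the whole table, 1 of 14568 (0.00686%) in edgeR and 5.36% in DESeq2. An unadjusted p under 0.05 was found for 20.9% in edgeR and at most 26.8% in DESeq2. None of the 10 was free of overlap between the groups, against 10.7% of all genes. Without Smad4 KO replicate 1, Pmaip1 was higher and Bak1 lower with no overlap, against 15.3% of all genes. The median log2 fold change of the 10 genes was -0.15, and that of all genes -0.0072.

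Bax on water had 1451, 1156, 1338 and 1556 normalized counts in WT and 889, 734, 619 and 1499 in Smad4 KO. Smad4 KO replicates 1 to 3 were below every WT library, and replicate 4, of prefix MP, was inside the WT range. The log2 fold change was -0.56 (SE 0.25, edgeR adjusted p = 0.22). Without Smad4 KO replicate 4 it was -0.88 and passed (edgeR adjusted p = 0.022), in a fit that called 13.5% of all genes. In a pair of fits chosen after the values were seen it also passed, without both MP libraries (-0.80, edgeR adjusted p = 0.034, with 6.31% of all genes called) and without these and Smad4 KO replicate 1 (-0.95, edgeR adjusted p = 0.019, with 12% called). Without Smad4 KO replicate 1 alone it was -0.53 (edgeR adjusted p = 0.33).

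Bcl2 on water had 299, 248, 295 and 368 in WT and 428, 549, 393 and 326 in Smad4 KO, where replicate 4 was again the library inside the WT range. The log2 fold change was 0.49 (SE 0.21, edgeR adjusted p = 0.22), and between 0.34 and 0.60 with each library left out. Pmaip1 had 364, 365, 360.2 and 265 in WT and 344, 409, 489.9 and 484 in Smad4 KO, so that the 3 Smad4 KO libraries with reduced Smad4 lay above every WT library and the library labelled replicate 1 lay among them. Its log2 fold change was 0.35 (SE 0.20, edgeR adjusted p = 0.33), and 0.44 without that library (edgeR adjusted p = 0.28). Bak1 had 2834, 2457, 2122 and 2027 in WT and 2301, 1648, 1618 and 1957 in Smad4 KO, with a log2 fold change of -0.33 (edgeR adjusted p = 0.28), or -0.44 without replicate 1. Bcl2l1 at 749 to 1015 and 609 to 1011, Mcl1 at 6675 to 8016 and 6317 to 9256, Bbc3 at 137 to 335 and 128 to 208, Bid at 233 to 409 and 266 to 337, Bik at 65.7 to 139 and 41.4 to 126, and Bcl2l11 at 126 to 198 and 121 to 231 overlapped between WT and Smad4 KO. The 2 MP libraries had the highest Bik (139 and 126) and Bax (1556 and 1499) and the lowest Bcl2l11 (126 and 121) of their groups. Fibroblast markers summed to 495 in Smad4 KO replicate 4 and to 59.7 to 220.2 in the other 3, and their part in its values was not tested.

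**Figure D3:**
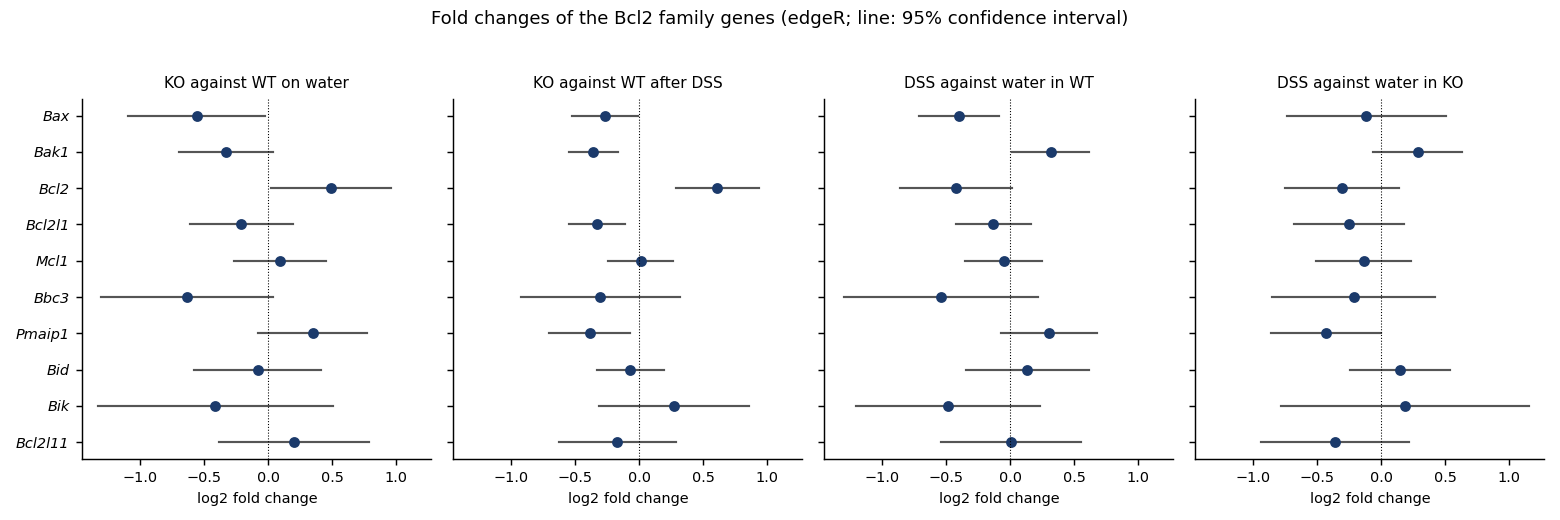
Log2 fold changes of the 10 genes in the 4 comparisons (points, x axis) with their 95% confidence intervals (lines). Bcl2 is at 0.49 and 0.61 in Smad4 KO against WT on water and after DSS, Bax at -0.56 and -0.26, and Pmaip1 at 0.35 and -0.39.

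In WT mice none of the 10 genes passed between DSS and water, which does not show that their levels were unchanged. Mitochondrial transcripts held 8.23% and 6.42% of the counts in WT water replicates 1 and 2, and 30.6% and 32.8% in replicates 3 and 4. After DSS they held 4.54% to 6.87% in WT. With each library left out, edgeR called 0 to 793 of all genes and 0 of the members. The part of this split in the result was not tested. edgeR called 0 of the 10 genes, with Bax and Bak1 at an unadjusted p under 0.05. It called 0 of 14407 genes in all, with 25.1% at an unadjusted p under 0.05. DESeq2 called 0 of the 10, with 2 at an unadjusted p under 0.05. Among all genes it called 12.6% and gave at most 30.2% an unadjusted p under 0.05. Pmaip1 was the only one of the 10 with no overlap, at 377 to 469 after DSS and 265 to 365 on water, where 25.2% of all genes had no overlap, and its log2 fold change was 0.30 (edgeR adjusted p = 0.29). The 2 effectors had opposite signs. Bax had a log2 fold change of -0.40 (SE 0.14, edgeR adjusted p = 0.13) and Bak1 one of 0.32 (SE 0.13, edgeR adjusted p = 0.18). All 3 anti-apoptotic genes had values below 0, from -0.42 for Bcl2 to -0.05 for Mcl1, whose 95% confidence interval ran from -0.35 to 0.25. The median over the 10 was -0.09, and over all genes -0.017.

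In Smad4 KO mice 0 of the 10 genes passed in edgeR or in DESeq2, and 0 had an unadjusted p under 0.05 with either tool. edgeR called 1 of 14409 genes (0.00694%), with 6.54% at an unadjusted p under 0.05. DESeq2 called 0.453%, with at most 7.5% at an unadjusted p under 0.05. The median log2 fold change of the 10 was -0.17, and that of all genes -0.020. None of the 10 was free of overlap (8.99% of all genes). With Smad4 KO water replicate 1 left out, Bak1 was higher and Pmaip1 lower after DSS with no overlap (13.8% of all genes). Pmaip1 had 277 to 368 after DSS and 344 to 489.9 on water, with a log2 fold change of -0.43 (SE 0.19, edgeR adjusted p = 0.75), and Bak1 had 0.29 (SE 0.16, edgeR adjusted p = 0.77). Bax, at -0.11, turned to 0.22 when Smad4 KO water replicate 4 was left out, and Bak1 to -0.12 when the 14 libraries were fitted together with their name prefix as a term.

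The difference of the DSS response between the genotypes was tested in 1 model of the 14 libraries. None of the 10 passed in edgeR or DESeq2, and 1 had an unadjusted p under 0.05 with each tool, against 1 of 15127 genes passing in edgeR (0.00661%), 0.0169% in DESeq2, and 7.46% with an unadjusted p under 0.05 in edgeR and 5.81% in DESeq2. That gene was Pmaip1, at 0.30 in WT and -0.43 in Smad4 KO, with a difference of -0.74 on the log2 scale (SE 0.25, unadjusted p = 0.010, edgeR adjusted p = 0.64), and of -0.83 without Smad4 KO water replicate 1 (edgeR adjusted p = 0.57). Its sign held with each library left out, between -0.85 and -0.63. The other 9 differences lay between -0.37 for Bcl2l11 and 0.67 for Bik, and each confidence interval included 0. Without Smad4 KO water replicate 4 the difference of Bik was 1.14 in place of 0.67 (unadjusted p = 0.026, edgeR adjusted p = 0.21). That of Bax was 0.60 in place of 0.29 (unadjusted p = 0.013, edgeR adjusted p = 0.17). In that edgeR fit 2772 of all genes had an unadjusted p under 0.05, against 1129 with all 14 libraries.

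The balance of pro- to anti-apoptotic transcripts was described as ratios of levels per kb, with no test. Bax to Bcl2 was 26.1, 25.1, 24.4 and 22.7 in WT on water and 11.1, 7.18, 8.47 and 24.7 in Smad4 KO on water. After DSS it was 20.3, 34.1 and 22.5 in WT and 11.8, 14.3 and 14.6 in Smad4 KO. The Smad4 KO libraries thus lay below the WT libraries in both treatments, except for Smad4 KO water replicate 4, and the library labelled replicate 1 lay with the low values. Without replicate 4 the Smad4 KO mean on water was 8.93 in place of 12.9, and without replicate 1 it was 13.4. Bax to Bcl2l1, 2 genes whose fold changes in Smad4 KO were both below 0, overlapped between the genotypes, at 4.38 to 7.34 and 3.09 to 5.24 on water and 4.18 to 4.88 and 4.42 to 4.92 after DSS. The summed level of the 7 pro-apoptotic genes over that of the 3 anti-apoptotic genes, which Bax, Bak1 and Mcl1 dominate, was 0.927 to 1.17 in WT and 0.618 to 0.836 in Smad4 KO on water, and 0.962 to 1.14 and 0.852 to 0.902 after DSS, without overlap in either treatment and whether or not replicate 1 is counted.

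**Figure D4:**
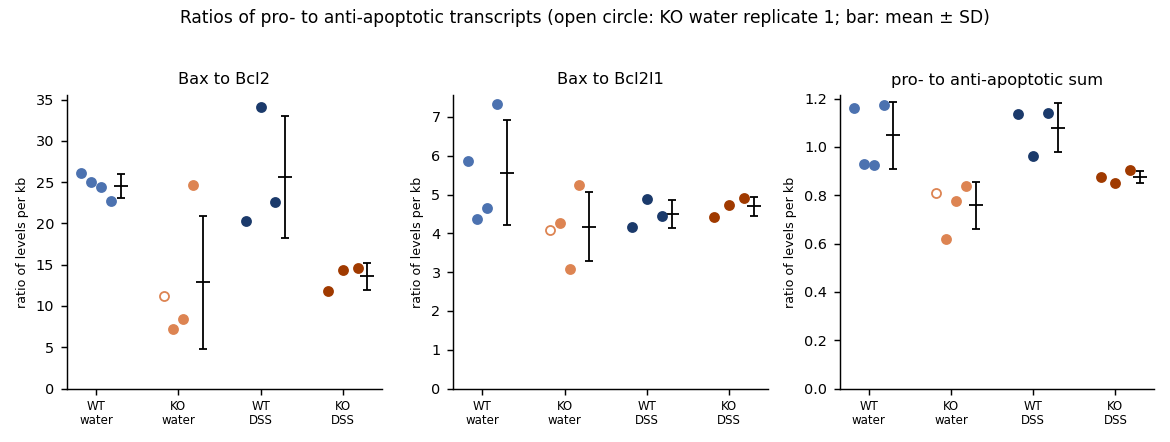
Ratios of levels per kb in each library (linear axes from 0), with the mean and SD of each group. Bax to Bcl2 is 11.8 to 14.6 in the 3 Smad4 KO libraries after DSS and 20.3 to 34.1 in WT, while Bax to Bcl2l1 overlaps.

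Around the family, 68 further genes of the cell death pathways were read in 5 lists, of which 58 had enough counts to be tested after DSS. In Smad4 KO against WT, 1 rose and 2 fell (3 of 58, against 1.09% of all genes), and the median log2 fold change was 0.022. Among 16 other Bcl2 family genes, 9 of them tested, Bnip3, a hypoxia-responsive BH3-like protein that acts in the removal of mitochondria, rose. It had 222, 289.96 and 349.8 in WT and 665, 548 and 541 in Smad4 KO, with a log2 fold change of 1.03 (SE 0.17, edgeR adjusted p = 0.019). On water Bnip3 had 124 to 265 in WT and 246 to 299 in Smad4 KO, which overlapped.

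Of 16 p53 network genes, 15 of them tested, Cdkn1a (p21), the cyclin-dependent kinase inhibitor, fell. The study itself plotted Cdkn1a from these libraries, so it is not independent evidence of a direction. It had 3030, 2733 and 3462 in WT and 1113, 1269 and 1320 in Smad4 KO, a change of -1.31 on the log2 scale (SE 0.11, edgeR adjusted p = 0.00068). Over the 15 tested genes of this list, 9 log2 fold changes were above 0, with a median of 0.099 and a highest value of 0.61. The other p53 targets among the members, Bax, Pmaip1 and Bbc3, had log2 fold changes of -0.26, -0.39 and -0.30 and did not pass. With each library left out, Bbc3 ran from -0.53 to -0.079, the latter without Smad4 KO replicate 1, and Bax from -0.33 to -0.17. Of 12 death receptor and necroptosis genes, 11 of them tested, Tradd, the adaptor of the TNF receptor, fell, with 2235, 2384 and 2331 in WT and 1584, 1728 and 1727 in Smad4 KO (log2 fold change -0.46, SE 0.09, edgeR adjusted p = 0.036). None of the 15 apoptosome and caspase genes and none of the 8 tested stress genes that induce BH3-only members passed. DESeq2 called the same 3 genes and Bok. The call of Tradd was lost with any 1 library left out (edgeR adjusted p = 0.057 to 0.15). That of Bnip3 was lost without WT replicate 2, Smad4 KO replicate 1 or Smad4 KO replicate 3 (up to 0.069). All 3 calls were lost in the models of all 14 and of 13 libraries (with 14, edgeR adjusted p = 0.31 for Bnip3, 0.999 for Tradd and 0.24 for Cdkn1a). The model of 14 libraries called 2 of all genes after DSS, and Smad4 itself did not pass in it (log2 fold change -2.05, edgeR adjusted p = 0.31).

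**Figure D5:**
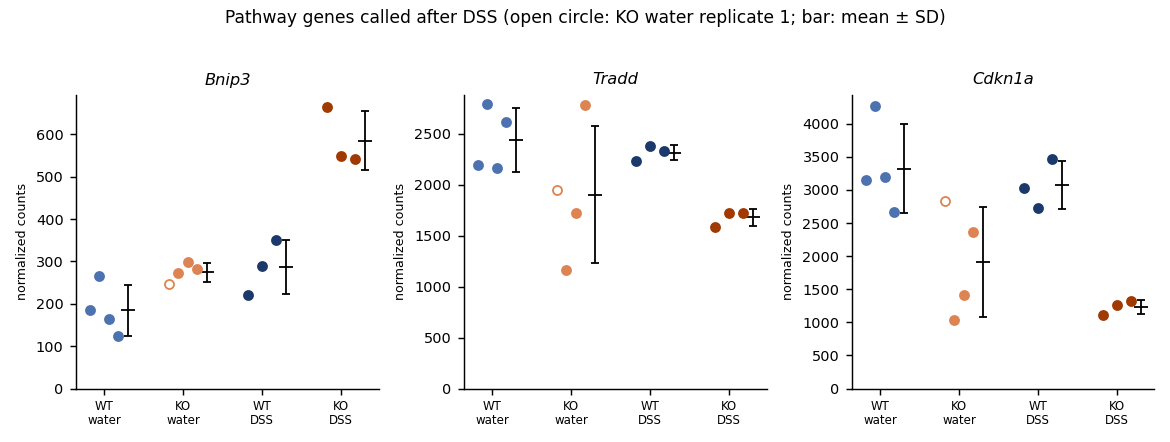
Normalized counts (linear axes from 0) of the 3 pathway genes that passed in Smad4 KO against WT after DSS, in each library, with the mean and SD of each group. Cdkn1a is at 1113 to 1320 in Smad4 KO and 2733 to 3462 in WT after DSS.

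On water 0 of the 59 tested pathway genes passed in edgeR, and DESeq2 called Mdm4, an inhibitor of p53, higher and Ddit3 (Chop), a stress-induced transcription factor, lower in Smad4 KO. For DSS against water in WT edgeR called 0 of 58, whereas DESeq2 called 8 of the 68, near the 12.6% it called among all genes, so that the count is not a result about the lists. Those given here were named for these calls, after their values were seen. Apaf1, the scaffold of the apoptosome, had 568 to 779 on water and 1091 to 1221 after DSS (DESeq2 log2 fold change 0.83, adjusted p = 0.00013). The death ligand Tnfsf10 (Trail) had 687 to 942 and 1304 to 2054 (DESeq2 1.01, adjusted p = 0.00011). Ripk1, Ripk3 and Mlkl, which carry necroptosis, and Mdm4 were also higher, and Ddit3 was lower. In Smad4 KO edgeR called 0 of 60, and DESeq2 called Bnip3 higher after DSS (log2 fold change 1.10). Whether these responses differ between the genotypes was tested in the interaction, in which none of the pathway genes passed with either tool.

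Across the 14 libraries, Pearson's r of log2 normalized levels described which members ran alike, over libraries that share genotype, treatment and depth. Bcl2 ran against Bak1 (r = -0.79) and Bcl2l1 (r = -0.56), and Bax ran with Bcl2l1 (r = 0.74), whereas Bik ran with Bax (r = 0.60) and against Bcl2l11 (r = -0.70). Among all genes tested, those most like Bax were Polr2f (r = 0.98) and Dgcr6 (r = 0.97), and those most like Bcl2 were Tbc1d4 (r = 0.90) and Zfp318 (r = 0.88). Bak1 was most like Gna11 and Rab5c (r = 0.89 each), Bcl2l1 like Leng9 and Sult2b1 (r = 0.92 each), and Mcl1 like Ptrf (r = 0.90) and Pnn (r = 0.82). For the BH3-only members the closest were Cflar, an inhibitor of caspase-8 on the death receptor list (r = 0.91), and Klf6 (r = 0.86) for Pmaip1, Usp30 and Zfp467 (r = 0.84 each) for Bbc3, Pi4k2a and Tmem54 (r = 0.91 each) for Bik, Fam83d (r = 0.89) and Arrdc3 (r = 0.88) for Bcl2l11, and 4933421A08Rik (r = 0.85) and 5430405G05Rik (r = 0.83) for Bid.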

How the data were processed

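The authors aligned the RNA-seq reads to mm9 with HISAT2 and counted them per gene with featureCounts, and deposited raw counts, whole numbers without normalization, for 37680 genes in 14 libraries. The members and all gene lists were chosen with earlier results of these data known. Libraries were grouped by their labels. The labels do not say which mouse each library came from, so p-values measure the spread between libraries. Normalized counts are TMM-scaled counts at the mean library size, and levels per kb use the union of exons in GENCODE M1. Genes that reached 10 counts in 3 or more libraries of the 2 groups compared were tested with the quasi-likelihood test of edgeR 4.0.16 on those groups (R 4.3.3), with Benjamini-Hochberg adjustment over all tested genes and a threshold of 0.05. Each fit used only the 2 groups compared, in place of 1 model of all 14 libraries. This choice too was made with earlier results of these data known. The interaction used all 14. DESeq2 1.42.0, models of all 14 or 13 libraries, a replicate or prefix block, 2 other normalizations, 2 other filters, and each library left out were tried as alternatives. For DESeq2, shares of all genes at an unadjusted p are upper limits, because genes without an adjusted p entered the count but not the total. The genes named are the 10 members, Smad4, pathway genes that passed, and the 2 genes most like each member. Scripts were tested on simulated data. No 2 libraries of a group agreed within sampling noise. Promoters are from RefSeq. 1 pathway gene is not reported here.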

Additional observations from a re-analysis of the deposited data

Results flagged for a closer look

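The Pmaip1 level of WT water replicate 4, 265 normalized counts, stood apart from the other 3 libraries of its group, at 360.2 to 365, with a gap to the nearest of 0.953 of the range of the group, past the critical value of Dixon's test. It was the only such library among 32 groups of 4 examined (the 10 members, the 3 ratios and the 3 pathway genes that passed, in the water groups), where chance gives about 1 in 20. Without it the log2 fold change of Pmaip1 in Smad4 KO against WT on water was 0.25.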

How the results depend on the processing

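Of 870 fold changes of the members under the alternatives, 829 kept their direction and 7 passed the test. These were not separate checks, as the fits shared libraries. In Smad4 KO against WT after DSS, prefix D only was the same fit as without WT replicate 3. The members called in Smad4 KO against WT on water ranged from 0 to 1 with each library left out, and were 1 (Bax, lower) without the MP libraries and 1 without these and Smad4 KO replicate 1. After DSS they were 2 (Bcl2 and Bak1) with DESeq2 and 2 without a low-count filter. Members without overlap went from 0 to 2 when Smad4 KO water replicate 1 was left out, both against WT on water and against DSS in Smad4 KO, a count added after the data were seen, as were the fits without the MP libraries.

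All genes called on water were 1, and 697 with DESeq2, 1347 with all 14 libraries, 1202 with 13, 54 without a filter, 623 with a replicate block, 2061 with a prefix block, 903 without the MP libraries, 1689 without these and Smad4 KO replicate 1, and 1 to 1946 with each library left out (1946 without Smad4 KO replicate 4). After DSS, 155 became 496 with DESeq2, 2 with all 14 libraries, 7 with 13, 502 without a filter, 1 with the prefix block, 69 with prefix D only and 47 to 123 with each library left out (47 without Smad4 KO replicate 3). For DSS in WT, 0 became 1703 with DESeq2, 2 with 13 libraries, 21 with the upper quartile, 253 without a filter, 104 with the replicate block, 3 with the prefix block, 23 with prefix D only and 0 to 793 with each left out (793 without WT water replicate 2). For DSS in Smad4 KO, 1 became 71 with DESeq2, 10 with 14 libraries, 6 with 13, 10 without a filter, 23 with the replicate block and 1 to 3 with each left out. For the interaction, 1 became 4 with DESeq2, 2 without a filter, 3 with the replicate block and 1 to 5 with each left out.

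Pathway genes called on water, 0, became 2 each with DESeq2, 14 libraries, 13 libraries and the replicate block, 7 with the prefix block, 4 and 6 without the MP libraries and also without replicate 1, and 0 to 8 with each left out. After DSS, 3 became 0 with 14 or 13 libraries or the prefix block, 1 with the replicate block and 1 to 2 with each left out. For DSS in WT, 0 became 8 with DESeq2, 3 without a filter, 1 with the replicate block, 1 with prefix D only and 0 to 4 with each left out, and in Smad4 KO 1 with DESeq2 and 1 without a filter.

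The sign turned for Mcl1 on water (-0.020 without the MP libraries, -0.069 also without replicate 1), Mcl1 after DSS (-0.018 with the prefix block, -0.014 with prefix D only), Bcl2l11 for DSS in WT (-0.034 with the upper quartile, -0.10 and -0.28 with the replicate and prefix blocks, -0.28 with prefix D only), Bax for DSS in Smad4 KO (0.23 with the replicate block), Bak1 there (-0.12 with the prefix block), and with the replicate block the interaction of Bak1 (0.063), Bcl2 (-0.087), Bcl2l1 (0.12) and Mcl1 (0.069). With each library left out, ranges that crossed 0 were -0.20 to 0.059 for Bid on water, -0.065 to 0.12 for Mcl1 after DSS, -0.16 to 0.026 for Mcl1 and -0.11 to 0.18 for Bcl2l11 for DSS in WT, -0.28 to 0.22 for Bax, -0.36 to 0.0079 for Bbc3 and -0.073 to 0.67 for Bik for DSS in Smad4 KO, and for the interaction -0.13 to 0.079 for Bak1, -0.0089 to 0.26 for Bcl2, -0.22 to 0.024 for Bcl2l1, -0.18 to 0.026 for Mcl1 and -0.13 to 0.14 for Bid. The cause was not tested.

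Replicate numbers did not pair the libraries, since same-numbered libraries correlated at r of at most 0.10 after removal of group means, except water replicates 4 (r = 0.61), and the replicate block called none of the members. Levels under RLE scaling and the ratios with each library left out moved by less than the spread between libraries.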
